A study of Mus musculus with 15 samples.

Results

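The change from budding organoids to spheroids was examined in 1 line of mouse small intestinal organoids that carries SOX9 fused to mEGFP. All 3 SOX9-mEGFP_spheroid libraries were set against all 3 SOX9-mEGFP_budding libraries, which are 6 of the 15 libraries of the series, and every gene that passed a filter on low counts was tested, 17560 of the 78298 genes listed. Small intestinal organoids are epithelial structures grown in a gel from isolated crypts. Budding organoids form a closed epithelium with crypt-like buds, whereas spheroids are round cysts without buds. Libraries were sorted into groups by the morphology and construct in their labels.

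Organoids of both groups were transduced with a lentivirus in which the L30 promoter drives Sox9-mEGFP, selected with puromycin, and harvested 5 days after seeding from 6 pooled wells. The spheroids carried in addition a histone H2B-mScarletI transgene under the same promoter with a neomycin selection marker, and they were at a later passage. Morphology, passage and the second transgene therefore cannot be told apart. The lines were derived from crypts of female mice aged 8 to 16 weeks. The 3 libraries of a group are described as biological replicates taken within 2 passages of a stated one, but nothing says that they came from separate animals or transductions. P-values therefore measure the spread between libraries of a group, estimated over all 15 libraries of the series. Organoids of 2 other constructs serve as reference: Halo-NLS (HaloTag with a nuclear localization signal, the control without a SOX9 transgene) and SOX9-Halo, budding and spheroid, each with 3 libraries.

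SOX9 is a transcription factor of the SRY-box family. In the adult small intestine it is made in crypts, where it is needed for Paneth cells and marks stem and progenitor cells, and it is a target of Wnt signalling. Normal crypts feed 2 kinds of offspring: absorptive enterocytes, which digest and take up nutrients, and secretory cells, which are the Paneth, goblet, enteroendocrine and tuft cells. CDX1 and CDX2 are homeodomain factors that maintain intestinal identity. The fetal intestine and the injured adult epithelium share another state, with genes such as Clu, Ly6a and Anxa1, that has been tied to the transcriptional coactivators YAP and TAZ.

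Between 29279812 and 38569142 reads were counted on genes in the budding libraries and between 32529829 and 36466380 in the spheroid libraries, and reads on mitochondrial genes made up 3.58% to 3.92% and 1.88% to 2.45% of them. Levels are given as CPM, read counts scaled to library size after TMM normalization, and 1 count is worth about 0.03 CPM. Where all 3 libraries of a group held at most 3 counts, the fold difference was computed against 3 counts per library and is a lower bound, which covers counting error only since reads carried no molecular identifiers. Over all tested genes, the libraries of different morphology lay a mean Euclidean distance of 213.3 apart on the log2 CPM scale (189.7 to 232.6, 9 pairs). Budding libraries lay 65.2 to 110.1 apart and spheroid libraries 64.4 to 83.9. Budding replicate 3 stood apart from replicates 1 and 2 in several crypt and enterocyte genes, and where it alone carries a group's level this is said beside the value.

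The epithelial label was checked with 7 markers. All 7 were tested and abundant, with summed levels of 6326 to 8340 CPM in budding and 11600 to 11620 CPM in spheroid libraries. Epcam, an epithelial adhesion molecule, was at 1268, 1009 and 1031 CPM in budding and 1078, 1091 and 990.3 CPM in spheroid libraries, and these ranges overlapped. Markers of fibroblasts, endothelium, leukocytes, neural cells and smooth muscle were low but not all near 0. The fibroblast genes Col1a2, Dcn and Lum, the endothelial genes Cdh5, Kdr and Cldn5 and the leukocyte gene Ptprc held 0 to 5 counts in any library, whereas the endothelial gene Vwf held 22 to 50 counts in every library and the mesenchymal gene Pdgfrb 19 to 32 in budding and 0 to 2 in spheroid libraries. Of the 12 fibroblast and mesenchymal markers 7 held at most 3 counts in all 6 libraries, as did 3 of 7 endothelial, 2 of 9 immune, 2 of 7 neural and 3 of 6 smooth muscle markers. The summed level of the tested immune markers was 4.49 to 6.15 CPM in budding and 6.43 to 11.3 CPM in spheroid libraries, and within it Csf1r and Cd68 rose while Itgam and Lyz2 fell. The neural list summed to 6.87 to 12.3 CPM in budding and 12.3 to 37.7 CPM in spheroid libraries, where S100b held 407 to 1402 counts. The smooth muscle list summed to 0.0928 to 0.812 CPM and 4.84 to 8.34 CPM, from Synm, while Acta2 held 1 to 5 counts in any library. Colonic markers were not low, at 124.1 to 137.0 CPM in budding and 57.16 to 78.95 CPM in spheroid libraries. Of 6 tested, 1 was called higher and 2 lower. Slc26a3 went from 1887 to 2853 counts down to 5 to 108, and Ggh from 298 to 532 up to 1193 to 2095. Hepatocyte and pancreatic markers summed to 50.79 to 57.73 CPM and 3191 to 4045 CPM, the latter mostly from Trf, described below. The part of such cells in the results below was not tested. In bulk libraries, fewer cells of a type and less RNA per cell cannot be told apart.

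Sox9 (ENSMUSG00000000567, chromosome 11 from 112673009 to 112678586 in GRCm39), the gene of the transgene, was at 339, 330.3 and 193 CPM in the budding libraries and at 260.0, 504 and 705 CPM in the spheroid libraries. In Halo-NLS organoids it was at 15.3, 22.9 and 9.10 CPM, in SOX9-Halo budding organoids at 39.8, 314 and 204 CPM and in SOX9-Halo spheroids at 314, 442 and 441 CPM. All 6 SOX9-mEGFP libraries were above all Halo-NLS libraries, while the 2 morphologies overlapped, since spheroid replicate 1 was below budding replicates 1 and 2. The log2 fold change from budding to spheroid was 0.77 (standard error 0.55, adjusted p = 0.36), so a difference in Sox9 between the morphologies was not detected at this spread. Counts per gene do not separate reads of the transgene from those of the endogenous gene. None of the other 6 SOX family genes tested was called. Of all genes 8.55% were called higher and 7.88% lower, so the absence of calls among 6 genes says little. Sox4, a factor of secretory progenitors, was at 58.7, 80.9 and 235 CPM in budding and 52.8, 46.6 and 51.4 CPM in spheroid libraries, with budding replicate 3 far above the others, and was called lower without budding replicate 1 (-1.65).

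Of the 17560 genes tested, 1501 were higher in spheroids (8.55%) and 1384 were lower (7.88%). A gene counted as called where its adjusted p did not exceed 0.01 (quasi-likelihood test in edgeR, Benjamini-Hochberg adjustment across the tested genes), its level differed 2-fold or more, and its normalized count averaged 10 or more over the 15 libraries. For 2880 of these 2885 genes the 3 libraries of one morphology all lay above those of the other, which held for 46% of all tested genes. The median log2 fold change of all genes was -0.04. Among the called genes, 661 rose and 641 fell by at least 8-fold by the fitted value. In 149 of the genes that rose every budding library held at most 3 counts, and in 212 of those that fell every spheroid library did. The calls were mostly protein-coding genes, with 1314 higher and 1114 lower, and 409 were long noncoding RNAs, of which 175 were higher and 234 lower.

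**Figure D1:**
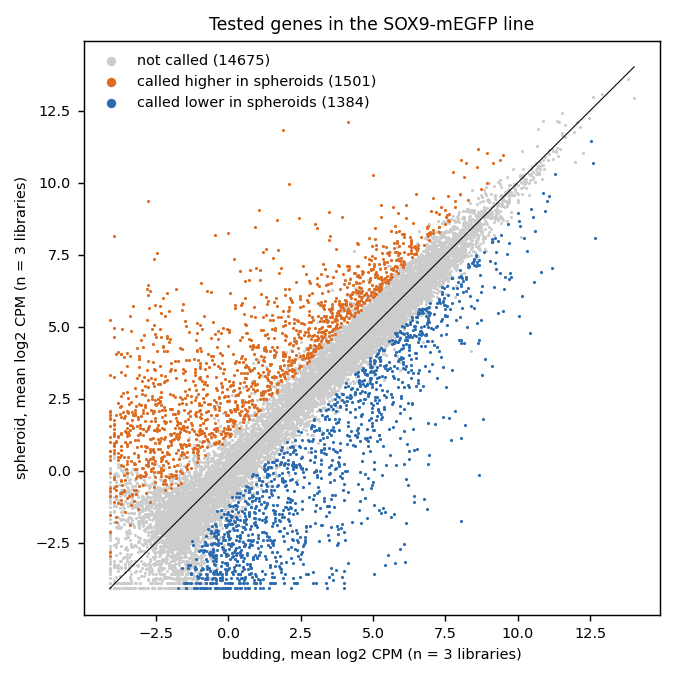
Mean log2 CPM of each of the 17560 tested genes (2 counts added) in 3 budding libraries on the horizontal axis and 3 spheroid libraries on the vertical axis. Genes called higher (1501) are orange and those called lower (1384) blue, the diagonal marks equal levels, and many called genes lie along the lower edges, where one group was close to 0 counts.

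The genes with the largest rise, among called genes that averaged 100 or more normalized counts and whose groups did not overlap, were led by Rhox5 (ENSMUSG00000095180, chromosome X from 36891636 to 36897311), a homeobox gene of the X-linked reproductive cluster that is usually confined to germline-supporting and extraembryonic tissue. It was at 0, 0 and 0.0232 CPM in budding and 299, 330.1 and 236 CPM in spheroid libraries, at least 3190.1-fold higher. Spp1 (ENSMUSG00000029304, chromosome 5 from 104582165 to 104589235), which encodes the secreted matrix protein osteopontin, was at 0.181, 0 and 0.162 CPM in budding and 813, 529.6 and 681 CPM in spheroid libraries, a log2 difference of 12.46 (standard error 0.72, adjusted p = 2.6e-08). Both genes had almost no reads in budding libraries, and no spheroid library was low.

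Trf (ENSMUSG00000032554, chromosome 9 from 103081200 to 103107814), the serum iron carrier transferrin, was present in budding libraries at 4.16, 3.09 and 3.81 CPM and reached 3105, 3866 and 3988 CPM in spheroids, a log2 difference of 9.95 (standard error 0.50, adjusted p = 9.6e-09). Of the other hepatocyte and pancreatic markers on a list of 10, none was called. Of these 9, Ins1, Ins2, Cpa1, Prss1 and Serpina1a had no count in any of the 6 libraries, albumin (Alb) held at most 21 counts and Afp 17 to 50. The other two were read more often, Ttr with 850 to 1637 counts and the elastase gene Cela1 with 376 to 1000 counts in budding and 905 to 1590 in spheroid libraries. Sftpd, a collectin of lung and other mucosal surfaces, went from 0.0724, 0.0619 and 0.255 CPM to 173, 202 and 127 CPM. Vsig1, a junctional adhesion protein of gastric epithelium, went from 0.109, 0.155 and 0.116 CPM to 197, 170.3 and 194 CPM. The groups of all 3 genes were separated by at least 2 orders of magnitude.

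The other genes in this group of 12 were Scara3, a scavenger receptor (at least 428-fold higher), the sialyltransferase St6gal1 (at least 114-fold), the calpain-family gene Capn6 (at least 384-fold, and 242.7-fold without spheroid replicate 3), the water channel Aqp5 (at least 280.4-fold), the vesicle transport adaptor Rab11fip5 (at least 349.9-fold), Rdx, which encodes the membrane-actin linker radixin (at least 195-fold), and the basement membrane collagen Col4a5 (at least 587-fold). St6gal1 reached 7.99, 8.65 and 14.3 CPM and Col4a5 45.5, 57.2 and 56.5 CPM in the spheroid libraries, and no budding library had more than 3 counts of any of these 7 genes. Rhox5, Vsig1, Capn6 and Col4a5 lie on the X chromosome.

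The largest falls included secretory and absorptive products. Gcg, which encodes the precursor of glucagon-like peptides in enteroendocrine L cells, was at 31.0, 20.7 and 6.43 CPM in budding libraries and had no count in any spheroid library, at least 229-fold lower. Gip, the incretin hormone of K cells, was at 69.7, 49.0 and 23.4 CPM and 0.0529, 0.0298 and 0.0568 CPM, at least 559.5-fold lower. Ang4, an antimicrobial ribonuclease of Paneth cells, went from 70.7, 60.3 and 37.8 CPM to 0.106, 0.0298 and 0.0284 CPM and fell by 9.88 on the log2 scale (standard error 0.69, adjusted p = 1.4e-07). In all 3, budding replicate 3 had the lowest budding level and still lay far above the spheroids.

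The Paneth cell defensins Defa21 and Defa22 fell at least 241-fold and 317-fold. Budding replicate 3 carried most of their signal, with 51.0 of 3.66, 6.44 and 51.0 CPM for Defa21, and without it the bounds were 59.6-fold for Defa21 and 60.1-fold for Defa22. These genes have near-identical copies among which uniquely aligned reads may be split or lost. Lct, the milk sugar enzyme lactase, went from 90.7, 50.1 and 21.0 CPM to 0.159, 0.0298 and 0.0568 CPM, and Epb41l3, a membrane skeleton protein, from 302, 289 and 215 CPM to 0.793, 0.119 and 0.114 CPM. Cyba, a subunit of NADPH oxidases, fell at least 193-fold. A further 3 were copies of the interferon-induced very large GTPase family annotated as pseudogenes (Gvin-ps3 and 2 identifiers named Gvin-ps1), for which unique reads are uncertain.

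Genes were next grouped by function, and the plot of called members per list sets their shares beside those of all genes. The counts given for each list below are to be read against these shares, 8.55% higher and 7.88% lower. Among factors that set intestinal identity, more were called lower than higher. Of 30 tested genes, 12 were called lower and 1 (Prdm1, a repressor active in fetal intestine, named after its values were seen) higher, and the median log2 fold change was -1.07. Cdx1 (ENSMUSG00000024619, chromosome 18 from 61151934 to 61169314) was at 166, 221 and 216 CPM in budding and 7.75, 2.66 and 2.04 CPM in spheroid libraries, a log2 difference of -5.59 (standard error 0.51, adjusted p = 1.3e-06). Cdx2 (ENSMUSG00000029646, chromosome 5 from 147237615 to 147244091) was at 315, 297 and 272 CPM and 103, 65.3 and 61.6 CPM, a log2 difference of -1.94 (standard error 0.24, adjusted p = 2.7e-05). Every spheroid library thus kept part of its Cdx2 reads and a smaller part of its Cdx1 reads.

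**Figure D2:**
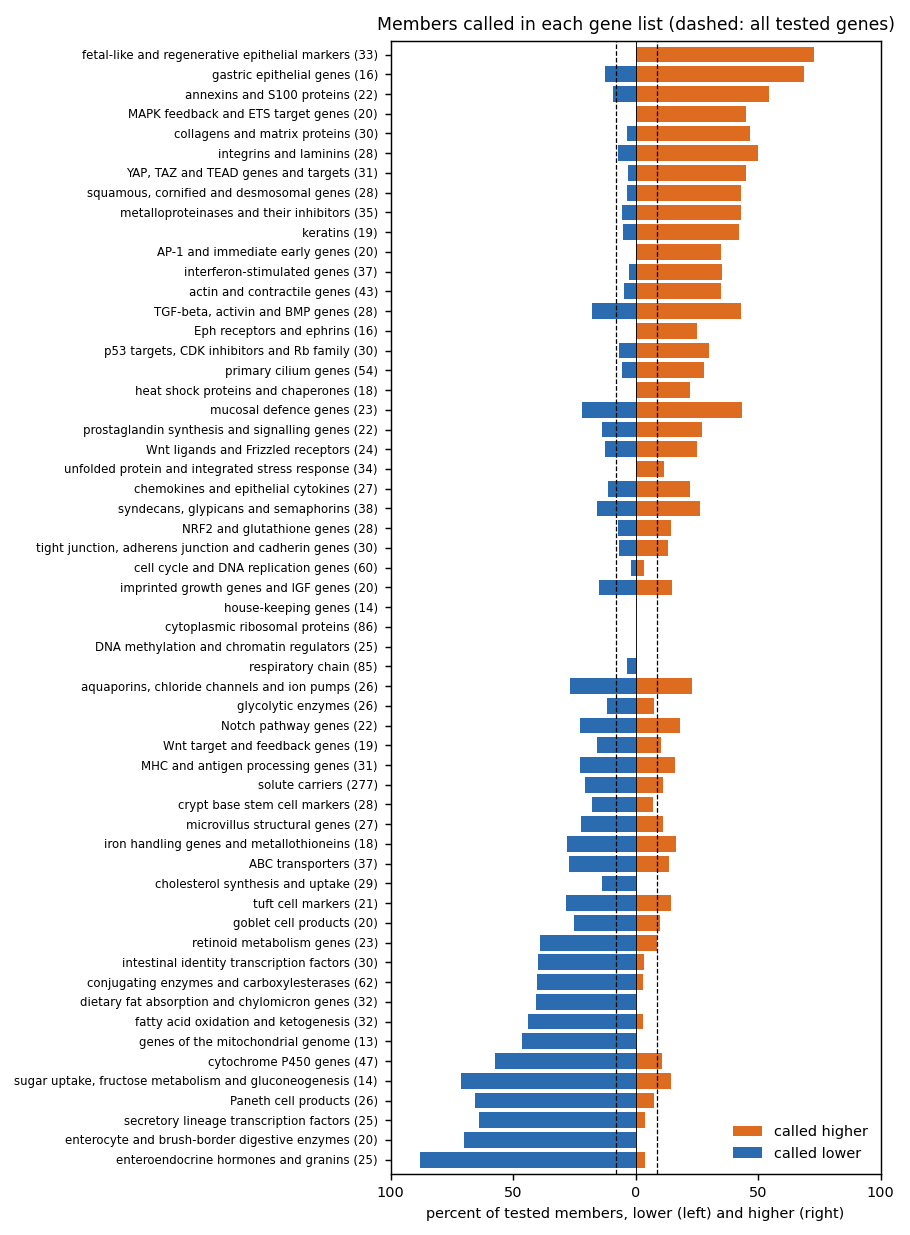
Share of the tested members of each gene list called higher (orange, to the right) and lower (blue, to the left) in spheroids, in percent of tested members, with the number tested in brackets. Dashed lines mark the shares among all 17560 genes, 8.55% higher and 7.88% lower, and the lists run from 24 of 33 fetal-like genes higher at the top to 22 of 25 enteroendocrine genes lower at the bottom.

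Vdr, the vitamin D receptor, fell from 497, 487 and 428 CPM to 16.7, 15.0 and 12.6 CPM, a log2 difference of -5.00 (standard error 0.38, adjusted p = 2.8e-07). Its target S100g, a calcium-binding protein of enterocytes, fell from 18.9, 31.6 and 23.5 CPM to 0.264, 0.358 and 0.114 CPM. Prox1, a homeodomain factor of enteroendocrine progenitors, was at least 24.3-fold lower, and at least 13.7-fold without budding replicate 3. Hnf4a, a nuclear receptor that drives enterocyte genes, was at 990.0, 931 and 740.3 CPM and 535, 468 and 370.0 CPM, without overlap but under the fold threshold at -0.96 on the log2 scale (adjusted p = 0.0069). It was called lower without budding replicate 3 or spheroid replicate 1 (-1.12 and -1.10). Gata4, which specifies proximal small intestine, was not called at -0.97 (adjusted p = 0.009) and was called lower without budding replicate 3 or spheroid replicate 3 (-1.14 and -1.22). Elf3, an epithelial ETS factor, was at 290.1, 232 and 219 CPM and 244, 193 and 293 CPM, and its groups overlapped. None of the 9 HOX genes tested was called. Together they summed to 0.579 to 0.619 CPM in budding and 0.106 to 0.454 CPM in spheroid libraries, so few reads that a change could hardly be detected.

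Absorptive enterocyte products were described by lists. Of 20 brush-border digestive enzymes, 14 were lower and 0 higher, with a median log2 fold change of -3.03 (-2.85 with genes at the floor set to their bound). Sis, which encodes sucrase-isomaltase, was at 1966, 1474 and 493 CPM in budding and 107, 93.1 and 30.3 CPM in spheroid libraries, a log2 difference of -4.10 (standard error 0.86, adjusted p = 0.002). Alpi, the intestinal alkaline phosphatase, was at 266, 187 and 78.1 CPM and 27.7, 16.5 and 11.9 CPM (-3.24 on the log2 scale, adjusted p = 0.00014). Without spheroid replicate 3 the call of Sis was lost (-3.75, adjusted p = 0.012). Enpep, an aminopeptidase that trims angiotensin, went further, from 194, 144 and 46.1 CPM to 0.45, 0.388 and 0.511 CPM. By contrast, Anpep (aminopeptidase N) was at 273, 232 and 192 CPM and 148, 171 and 299 CPM, and Mgam (maltase-glucoamylase) at 1045, 774 and 602 CPM and 352, 454 and 420.2 CPM. Anpep overlapped between the groups, and Mgam did not pass at -0.98 (adjusted p = 0.16).

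Within the microvillus list of 27 genes, 6 fell and 3 rose (22.2% and 11.1%, against 7.88% and 8.55% of all genes). Vil1, the bundling protein villin, was at 1210.1, 1026 and 645 CPM and 840.5, 687 and 775 CPM and was not called. Baiap2l2, a membrane-bending protein of microvilli, fell by 3.64 on the log2 scale. Ezr, the membrane-actin linker ezrin, was at 547, 414 and 329 CPM and 768, 934 and 921 CPM, a log2 difference of 1.03 (adjusted p = 0.0029), and the villin-like gene Vill rose from 1.16, 0.866 and 1.30 CPM to 134, 184 and 175 CPM. Ezr lost its call with each of 4 single libraries left out (0.81 to 0.97). The other 18 genes of this list were not called. Krt20, a keratin of differentiated cells, was at 285, 214 and 60.2 CPM and 93.3, 111 and 70.6 CPM, with budding replicate 3 below every spheroid library.

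Of 32 genes of fat uptake and export, 13 were lower and 0 higher. Fabp1, which binds fatty acids inside enterocytes, was at 2638, 2072 and 460.1 CPM and 72.6, 38.1 and 7.46 CPM, a log2 difference of -5.45 (standard error 0.82, adjusted p = 0.00013). Mttp, which loads lipid onto chylomicrons, was at 1368, 1036 and 430.0 CPM and 219.7, 117 and 61.0 CPM (-2.83 on the log2 scale). In both genes the lowest budding library was replicate 3, and it lay above all spheroid libraries. Acsl5, a fatty acyl-CoA ligase, was at 926, 878 and 535 CPM and 842, 809.9 and 637 CPM, which overlapped.

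The bases upstream of the start are shown for these 3 absorptive genes that fell and for 2 genes described below that rose, Anxa1 and Mmp7, because letters bound by CDX, HNF4 and AP-1 factors can be looked for there. Each run is the 250 bases before the start in the gene's direction, from the RefSeq promoter table, build GRCm38.p6, whose coordinates do not apply to GRCm39. Capitals mark matches on either strand to TTTATNG (CDX), CAAAGTCCA (HNF4-like), TGANTCA (AP-1) or GGAATG (TEAD).
Fabp1, chr6:71199629-71199878, plus strand: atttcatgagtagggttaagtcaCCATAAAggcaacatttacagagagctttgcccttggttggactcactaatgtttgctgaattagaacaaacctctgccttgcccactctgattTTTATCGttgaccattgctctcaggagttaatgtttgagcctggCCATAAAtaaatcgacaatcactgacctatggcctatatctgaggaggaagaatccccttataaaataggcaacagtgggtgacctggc
Sis, chr3:72967864-72968113, minus strand: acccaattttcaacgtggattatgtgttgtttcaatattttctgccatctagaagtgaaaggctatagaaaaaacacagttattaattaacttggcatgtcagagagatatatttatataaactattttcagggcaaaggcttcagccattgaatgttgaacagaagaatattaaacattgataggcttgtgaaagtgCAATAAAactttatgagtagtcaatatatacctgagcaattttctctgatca
Alpi, chr1:87101607-87101856, minus strand: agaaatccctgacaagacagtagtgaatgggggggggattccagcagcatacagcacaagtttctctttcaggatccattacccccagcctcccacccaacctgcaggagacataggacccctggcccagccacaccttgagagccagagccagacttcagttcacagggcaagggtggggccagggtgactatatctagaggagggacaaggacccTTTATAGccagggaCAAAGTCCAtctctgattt
Anxa1, chr19:20390672-20390921, minus strand: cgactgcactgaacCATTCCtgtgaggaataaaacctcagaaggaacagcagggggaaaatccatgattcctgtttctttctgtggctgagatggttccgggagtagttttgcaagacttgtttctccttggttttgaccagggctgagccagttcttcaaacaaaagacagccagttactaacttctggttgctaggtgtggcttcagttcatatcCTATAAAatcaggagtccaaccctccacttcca
Mmp7, chr9:7691840-7692089, plus strand: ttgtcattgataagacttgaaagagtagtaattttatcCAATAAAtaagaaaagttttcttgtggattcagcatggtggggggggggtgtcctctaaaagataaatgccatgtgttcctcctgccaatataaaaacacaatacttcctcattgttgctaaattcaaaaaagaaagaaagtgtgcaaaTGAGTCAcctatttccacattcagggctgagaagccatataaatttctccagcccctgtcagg

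Fabp1 held 3 CDX matches, Sis 1, and Alpi 1 CDX match starting 33 bases before the start and 1 HNF4-like match starting 19 bases before it. Anxa1 held 1 TEAD and 1 CDX match, and Mmp7 1 CDX and 1 AP-1 match, the latter starting 63 bases before the start and read alike on both strands. Thus CDX letters stood upstream of genes of either direction, and they also take in part of a TATA box. Of 27025 promoters in the table, 10.2% held the CDX letters, 0.381% the HNF4-like letters, 6.87% the AP-1 letters and 12.6% the TEAD letters. The SOX letters ACAATGG, held by 3.07%, were also looked for and had no match in the promoters shown. A promoter was matched for 63.9% of the tested genes, too few for a comparison of shares between called genes and the rest.

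In sugar uptake and metabolism 10 of 14 genes were lower and 2 higher, with no overlap between the groups in 14 of 14, against 46% of all tested genes (median log2 fold change -3.81). The sodium-glucose cotransporter Slc5a1 went from 2054, 1316 and 435 CPM in budding to 96.5, 44.0 and 16.8 CPM in spheroid libraries (-4.60 on the log2 scale, standard error 0.67, adjusted p = 0.0001), and the fructose carrier Slc2a5 from 146, 142 and 86.6 CPM to 2.38, 1.28 and 0.908 CPM. Replicate 3 was lowest within each morphology in both genes. Among 26 glycolytic enzymes 2 rose and 3 fell (7.69% and 11.5%, against 8.55% and 7.88% of all genes), with a median of -0.08. The abundant Gapdh was at 9146, 6794 and 3714 CPM and 7753, 7839.6 and 8336 CPM.

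In foreign-compound metabolism, of the 100 cytochrome P450 genes listed 47 were tested, and 27 were lower and 5 higher (median -2.35). Cyp2c55 was at 1398, 1613 and 959 CPM and 409, 197 and 93.4 CPM, and Cyp4f14 at 960.2, 752 and 263 CPM and 148, 70.4 and 53.8 CPM. Cyp2w1 fell by 6.48 on the log2 scale (adjusted p = 6.8e-05). Cyp2c genes have close copies, so their unique reads are uncertain. Conjugating enzymes and carboxylesterases had 25 of 62 members lower and 2 higher. Fatty acid oxidation and ketogenesis had 14 of 32 lower and 1 higher. Cholesterol synthesis and uptake had 4 of 29 lower (13.8%, against 7.88% of all genes) and a median of -0.08.

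In the secretory lineages, regulators fell more often than they rose. Of 25 transcription factors of these lineages, 16 fell and 1 rose (64.0% and 4.0%, against 7.88% and 8.55% of all genes). Atoh1, which commits progenitors to all secretory fates, was at 18.4, 16.5 and 16.8 CPM in budding and 9.97, 7.28 and 10.1 CPM in spheroid libraries and did not pass (-0.92 on the log2 scale, standard error 0.28, adjusted p = 0.024). Factors of enteroendocrine cells reached the floor of 3 counts: Fev fell at least 90.2-fold and Isl1 at least 11.4-fold. Xbp1, a factor of cells with high secretory load, was at 325, 299 and 218 CPM and 473, 556 and 520.1 CPM, a difference of 0.88 under the fold threshold. The gene that rose, Klf15, named after its values were seen, went from 0, 0.0309 and 0.0696 CPM to 4.34, 8.12 and 8.06 CPM.

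Enteroendocrine products had the largest share of falls among the lists. Of 25 hormones and granins, 22 were lower and 1 higher (88.0% and 4.0%, against 7.88% and 8.55% of all genes). The median was -7.33 (-5.08 with bounds). Chgb, the granule protein secretogranin 1, was at 637, 352 and 294 CPM and 1.56, 1.49 and 0.227 CPM (-8.61 on the log2 scale, standard error 0.81, adjusted p = 1.8e-06). Chga, the chromogranin used to stain these cells, was at 167, 88.8 and 42.6 CPM and 0.582, 0.507 and 0.227 CPM. The gene that rose was Cpe, a prohormone-processing carboxypeptidase, at 48.0, 29.7 and 23.8 CPM and 115, 136 and 165 CPM.

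Of 26 tested Paneth cell products (46 listed), 17 were lower and 2 higher (65.4% and 7.69%, against 7.88% and 8.55% of all genes). Lyz1, the Paneth lysozyme and a close copy of Lyz2, was at 523, 482 and 674 CPM and 23.2, 10.8 and 7.49 CPM, a log2 difference of -5.34 (standard error 0.42, adjusted p = 4e-07). Mmp7, the metalloproteinase that activates defensins and that is also made in injured and neoplastic epithelium, rose from 36.5, 24.4 and 36.7 CPM to 1327, 1305 and 1106 CPM (5.26 on the log2 scale, standard error 0.28, adjusted p = 1.5e-08). Its upstream sequence is the one printed above with an AP-1 match, and a part of that match in the rise was not tested. Wnt3, a niche ligand that Paneth cells make, fell by 6.34 on the log2 scale.

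Most goblet cell products were not called. Of 20 members, 5 were lower, 2 higher and 13 not called, with a median of -0.85. Fcgbp, a mucus protein, was at 6380.0, 4107 and 2511 CPM and 1203, 1511 and 2588 CPM, and Tff3, the trefoil factor of goblet cells, at 1534, 1104 and 663 CPM and 678, 592 and 659.7 CPM. In both genes the groups overlapped. Spink4 was at 754, 674 and 375 CPM and 352, 315 and 219 CPM, without overlap and not called (adjusted p = 0.075). Muc2, the main mucin, spread widely within either group, with 809, 317 and 150.2 CPM in budding and 3.41, 26.7 and 59.1 CPM in spheroid libraries, and its log2 fold change of -3.84 had an adjusted p of 0.031. Zg16 and Clca1, 2 further mucus components named after their values were seen, were at 132, 43.8 and 2.60 CPM and 27.7, 30.2 and 49.6 CPM, and at 36.6, 12.6 and 2.04 CPM and 14.2, 16.4 and 39.8 CPM. Fut2, which adds fucose to mucins, rose by 4.52 on the log2 scale. Of 21 tuft cell markers 6 fell and 3 rose (28.6% and 14.3%, against 7.88% and 8.55% of all genes).

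**Figure D3:**
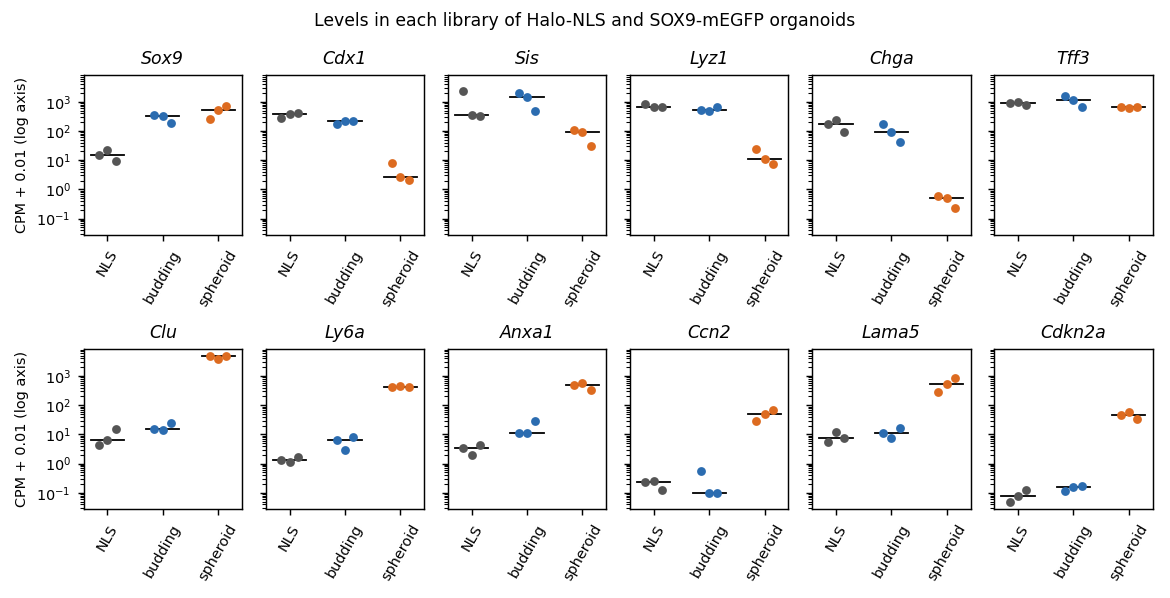
CPM on a log axis (0.01 added) of 12 genes in each library of Halo-NLS (grey), SOX9-mEGFP_budding (blue) and SOX9-mEGFP_spheroid (orange), 3 points each, with a bar at the median. Cdx1, Sis, Lyz1 and Chga are lower in every spheroid library than in every budding library, Clu, Ly6a, Anxa1, Ccn2, Lama5 and Cdkn2a are higher, and the points of Sox9 and of Tff3 overlap.

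Of 28 stem cell genes of the crypt base 5 fell and 2 rose (17.9% and 7.14%, against 7.88% and 8.55% of all genes). The median was -0.26, smaller in size than its SD of 0.449 between replicates of a group. Lgr5, the R-spondin receptor that marks these cells, was at 13.4, 14.8 and 71.9 CPM in budding and 35.9, 36.3 and 65.2 CPM in spheroid libraries, which overlapped because budding replicate 3 was high. Without that library Lgr5 was called higher (1.65, adjusted p = 0.004). Olfm4 was at 5.07, 20.6 and 463 CPM and 1.96, 3.76 and 1.65 CPM. Its fall of 6.05 on the log2 scale (standard error 1.48, adjusted p = 0.0059) rests largely on budding replicate 3, which held 463 of these CPM, and without it the value is -2.42 (adjusted p = 0.068). Prom1, a membrane protein of stem and progenitor cells, rose from 260.2, 275 and 242 CPM to 856, 821 and 666 CPM (1.59, adjusted p = 0.00013). The water channel Aqp4 and the nuclear receptor Nr2e3 fell at least 214-fold and 61.1-fold. The bound of Aqp4, at 9.88, 12.3 and 32.2 CPM in budding libraries, was 130.9-fold without budding replicate 3.

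Of 19 tested Wnt targets and feedback genes 2 rose and 3 fell (10.5% and 15.8%, against 8.55% and 7.88% of all genes), with a median of 0.01. Cd44, a hyaluronan receptor, went from 25.4, 25.7 and 59.3 CPM to 286, 312 and 457 CPM, and Ccnd1, cyclin D1, from 35.7, 51.2 and 80.0 CPM to 229.7, 259 and 233 CPM. Apcdd1, an inhibitor of the pathway, fell from 11.4, 11.6 and 18.5 CPM to 0.212, 0.0298 and 0.142 CPM. Axin2, the common readout gene of the pathway, named after its values were seen, was at 27.1, 31.0 and 123 CPM and 51.1, 42.9 and 69.3 CPM, with a log2 difference of -0.15 (adjusted p = 0.88). Budding replicate 3 alone was high, and without it the difference was 0.86 and Axin2 stayed uncalled. Among ligands, Wnt7b rose from 0.0362, 0.0309 and 0.139 CPM to 15.6, 13.7 and 18.1 CPM while Wnt3 fell. In the Notch pathway 4 of 22 genes rose and 5 fell (18.2% and 22.7%). The ligand Dll1 was at 28.5, 29.7 and 30.6 CPM and 3.68, 1.94 and 1.42 CPM (-3.65, standard error 0.35, adjusted p = 2.1e-06), and the ligand Jag2 at 41.9, 47.1 and 39.7 CPM and 117, 117 and 169 CPM (1.65, adjusted p = 0.00069). Hes1, a repressor that Notch induces, was at 96.8, 82.4 and 92.7 CPM and 46.5, 49.6 and 50.5 CPM, separated but under the fold threshold (-0.89).

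Fetal-like and regenerative markers had the largest share of rises among the lists with at least 10 tested genes: 24 of 33 tested genes were higher and 0 lower, with a median log2 fold change of 3.64. The list holds genes that earlier work tied to spheroids, and its members were chosen with results of these data known. Clu (ENSMUSG00000022037, chromosome 14 from 66190200 to 66218999), the chaperone clusterin that marks revival stem cells, was at 15.3, 14.4 and 24.6 CPM in budding and 4729, 3820.5 and 4805 CPM in spheroid libraries, a log2 difference of 7.94 (standard error 0.61, adjusted p = 2.9e-07). Ly6a (ENSMUSG00000075602, chromosome 15 from 74863840 to 74869880), the surface protein Sca-1, was at 6.30, 2.97 and 8.47 CPM and 438, 464 and 411 CPM (6.21, standard error 0.58). Anxa1 (ENSMUSG00000024659, chromosome 19 from 20350792 to 20368374), a phospholipid-binding protein of repair, was at 11.0, 11.2 and 29.1 CPM and 483, 570.3 and 335 CPM (4.75, standard error 0.59). For each of the 3 genes the lowest spheroid library was more than 10 times the highest budding library.

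S100a6, a calcium-binding protein, went from 1.92, 1.76 and 2.48 CPM to 540.0, 497 and 561 CPM (8.01 on the log2 scale, standard error 0.32, adjusted p = 3.3e-09). Basp1, a membrane protein of growing neurites, went from 0.181, 0 and 0.162 CPM to 70.6, 93.0 and 101 CPM. Krt19, a keratin of simple epithelium, did not overlap but stayed under the fold threshold, at 1298, 1146 and 961 CPM and 2163, 2002 and 2370.0 CPM, and was called higher without budding replicate 1 (1.05).

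YAP and TAZ are coactivators that bind TEAD factors and are held back by the Hippo kinases. Of 31 genes of this pathway 14 rose and 1 fell (median 1.39). Of the coactivators, Yap1 was at 80.3, 75.3 and 92.2 CPM and 90.0, 80.7 and 107 CPM, which overlapped (0.16, adjusted p = 0.59), whereas Wwtr1, which encodes TAZ, went from 0.217, 0.278 and 0.278 CPM to 14.1, 19.3 and 24.6 CPM (6.20, standard error 0.48, adjusted p = 3.1e-07). Tead4 rose from 2.17, 2.26 and 1.39 CPM to 16.3, 21.4 and 20.9 CPM. The target Ccn2, a matricellular growth factor, went from 0.543, 0.0928 and 0.0928 CPM to 30.0, 51.0 and 67.9 CPM, and Myof, a membrane repair protein, from 3.19, 2.60 and 4.25 CPM to 167, 213 and 239.5 CPM. Amotl1, an adaptor that binds YAP, rose by 6.43 on the log2 scale. Nf2, an upstream activator of the kinases, overlapped between the groups at 119, 112 and 96.2 CPM and 107, 98.6 and 109 CPM.

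Among 28 integrins and laminins, which are matrix receptors and basement membrane proteins, 14 rose and 2 fell, and among 30 collagens and matrix proteins 14 rose and 1 fell. Lama5, a laminin chain of epithelial basement membranes, was at 11.4, 7.30 and 16.3 CPM in budding and 279.6, 549 and 842 CPM in spheroid libraries (5.58, standard error 0.57, adjusted p = 3.7e-06). Lamb1 was at 3.11, 1.18 and 0.812 CPM and 39.9, 64.5 and 98.7 CPM, and Itgb4, the laminin receptor subunit of hemidesmosomes, at 183, 167 and 144 CPM and 408, 564 and 783 CPM. Col18a1, another basement membrane component, went from 2.03, 1.30 and 2.34 CPM to 273, 349.6 and 458 CPM (7.57, standard error 0.41), and Col4a6 rose at least 198-fold. In Lama5, Lamb1, Itgb4 and Col18a1 spheroid replicate 3 was the highest library, and spheroid replicate 1 was the lowest of the spheroids. Itgb1, a subunit of many matrix receptors, was at 246, 229.5 and 195 CPM and 409.8, 479 and 376 CPM and was not called.

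Of 35 metalloproteinases and inhibitors 15 rose and 2 fell. Adam28, a membrane protease, rose at least 319-fold. Cav1, Cavin2 and Cavin3, from the actin and contractile list, encode proteins of caveolae, which are membrane pits that flatten under stretch. Cav1 went from 0.0362, 0 and 0.0928 CPM to 36.0, 39.4 and 50.9 CPM, and Cavin2 and Cavin3 rose at least 139-fold and 39.1-fold. Actb, cytoplasmic beta-actin, was at 2911, 2362 and 1824 CPM and 2297, 2045 and 2595 CPM, which overlapped. Of 43 actin and contractile genes 15 rose and 2 fell, and of 54 primary cilium genes 15 rose and 3 fell, among the former Pkhd1, the fibrocystin of tubular epithelia, from 0.362, 0.309 and 0.65 CPM to 13.5, 21.9 and 20.3 CPM.

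Lists of other epithelia were also counted. Of 16 gastric epithelial genes 11 rose and 2 fell (median 3.99). Ctse, the gastric protease cathepsin E, went from 0.181, 0.0619 and 0.0696 CPM to 60.9, 68.6 and 105 CPM (9.58, standard error 0.55, adjusted p = 2.4e-08), and Anxa10, a gastric annexin, from 5.43, 3.09 and 4.94 CPM to 63.8, 73.1 and 53.6 CPM. Aqp5 and Vsig1 of the same list were among the largest rises above. Of 28 squamous and desmosomal genes 12 rose and 1 fell. Dsg3, a desmoglein of stratified epithelium, went from 1.19, 0.526 and 1.30 CPM to 217, 389 and 327 CPM, whereas the general desmosomal genes Dsp and Jup overlapped between the groups. Krt14 and Krt6a, keratins of basal and wounded epidermis, rose at least 47.0-fold and 17.6-fold but stayed low, at 4.95, 4.39 and 3.41 CPM and 1.38, 1.67 and 1.73 CPM. Krt18, of simple epithelium, went from 680.4, 652 and 815 CPM to 1970.0, 2143 and 1829.9 CPM. Of 22 annexins and S100 proteins 12 rose and 2 fell, among the former Anxa3 from 9.12, 7.09 and 9.14 CPM to 317, 396 and 329 CPM.

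Of 20 genes that growth factor signalling through the MAPK cascade induces, 9 were called higher, 0 lower and 11 neither way (median 1.69). Egr1, an immediate early factor, was at 27.6, 25.5 and 16.0 CPM and 83.6, 116 and 267 CPM (2.76, standard error 0.62, adjusted p = 0.0031), Phlda1 at 26.9, 23.8 and 44.5 CPM and 138, 159.9 and 181 CPM, and the feedback inhibitor Spry4 at 0.29, 0.464 and 0.65 CPM and 9.94, 12.1 and 16.1 CPM. No budding library reached the lowest spheroid library in any of them, but Egr1 lost its call with each of 4 single libraries left out (2.09 to 2.91). Among EGF family genes, the ligand Hbegf rose from 8.14, 7.83 and 6.45 CPM to 68.3, 70.0 and 76.1 CPM and the receptor Egfr from 10.4, 8.20 and 14.8 CPM to 24.3, 32.6 and 43.9 CPM, while the ligand Nrg4 fell from 16.1, 12.1 and 2.99 CPM to 0.635, 0.537 and 0.426 CPM. Areg and Erbb2 overlapped between the groups. Of 20 AP-1 and immediate early genes 7 rose and 0 fell, while Junb did not pass (1.24, adjusted p = 0.015) and was called higher without budding replicate 1 (1.76). Hbegf, Egr1 and Spry4 lie on chromosome 18, whose median level was shifted, as described below.

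Of 28 TGF-beta, activin and BMP genes 12 rose and 5 fell. Bmp4, a ligand that opposes crypt growth, rose at least 28.6-fold, and Id4, an inhibitor of basic helix-loop-helix factors, fell at least 12.2-fold. In prostaglandin synthesis 6 of 22 genes rose and 3 fell (27.3% and 13.6%, against 8.55% and 7.88% of all genes). The synthase Ptges went from 0.615, 0.0928 and 0.0928 CPM to 25.2, 24.2 and 21.3 CPM, and both cyclooxygenase genes rose. Ptgs1 went from 0.217, 0.0928 and 0.139 CPM to 4.71, 6.00 and 7.10 CPM and Ptgs2 from 0.0362, 0.0619 and 0.139 CPM to 1.67, 2.98 and 3.75 CPM. Of 37 interferon-stimulated genes 13 rose and 1 fell (median 1.48). Oas1g rose at least 30.0-fold and Rtp4 from 0.253, 0.124 and 0.0696 CPM to 4.23, 5.58 and 6.04 CPM, whereas Irf8, an interferon regulatory factor, fell from 121, 105 and 101 CPM to 45.1, 25.5 and 29.3 CPM.

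Of 23 mucosal defence genes 10 rose and 5 fell. Pigr, the receptor that carries IgA into the lumen, was at 1819, 1727 and 1025 CPM and 629, 470.2 and 294 CPM (-1.71, standard error 0.42, adjusted p = 0.0064), and the lectin Itln1 at 231, 281 and 285 CPM and 2.06, 1.73 and 2.64 CPM. Pigr lost its call with each of 4 single libraries left out (-1.76 to -1.51). Chit1, a chitinase, rose from 0.0362, 0.0309 and 0.278 CPM to 80.1, 73.9 and 83.5 CPM. Ccl25, a chemokine that calls lymphocytes to the small intestine, fell from 499, 536 and 249 CPM to 54.4, 23.2 and 9.51 CPM. Among 31 MHC and antigen processing genes 5 rose and 7 fell (16.1% and 22.6%, against 8.55% and 7.88% of all genes). H2-T3, the nonclassical TL antigen of small intestinal epithelium, fell from 90.5, 88.2 and 45.3 CPM to 0.714, 0.119 and 0.114 CPM, while H2-K1 was at 334, 319 and 264 CPM and 371, 366 and 385 CPM and was not called.

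Cell cycle genes gave few calls. Of 60 cell cycle and replication genes 2 rose and 1 fell (3.33% and 1.67%, against 8.55% and 7.88% of all genes), with a median of -0.25. Mki67, the proliferation antigen Ki-67, was at 44.4, 34.6 and 229 CPM in budding and 28.4, 65.3 and 129 CPM in spheroid libraries (-0.47, standard error 0.80, adjusted p = 0.74), with a wide spread within each group. Budding replicate 3 carried most of the budding level, and without it the value was 0.85 and Mki67 stayed uncalled. The risen genes were Ccnd1 and Ccnd2, the latter from 217, 206 and 228 CPM to 1244, 1424 and 1311 CPM (2.61, standard error 0.19, adjusted p = 2.5e-07). E2f2 fell from 113, 106 and 67.0 CPM to 27.7, 16.2 and 23.6 CPM. Cdkn2a (ENSMUSG00000044303, chromosome 4 from 89192708 to 89212890), the locus of the cell cycle inhibitors p16 and p19, was at 0.109, 0.155 and 0.162 CPM and 46.3, 57.0 and 33.6 CPM, a log2 difference of 8.27 (standard error 0.36, adjusted p = 6.5e-09). The p53 target and inhibitor Cdkn1a overlapped at 351, 217 and 131 CPM and 309, 214 and 289 CPM, and of 30 genes on this list 9 rose and 2 fell.

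In general cell processes, none of 86 cytoplasmic ribosomal protein genes, 25 DNA methylation and chromatin regulators and 14 house-keeping genes was called either way (medians -0.16, -0.34 and -0.12). Of all genes 8.55% were called higher and 7.88% lower. Of the 13 tested genes of the mitochondrial genome 6 were lower and none higher, with a median of -1.15. For example, mt-Nd5 was at 1899.5, 1794 and 2539 CPM in budding and 503, 669 and 843 CPM in spheroid libraries. Nuclear-encoded respiratory chain genes had a median of -0.53, with 3 of 85 lower. Mt1, a metallothionein, fell from 6337, 6935 and 5560.4 CPM to 1892, 1232 and 1938 CPM and Fth1, the ferritin heavy chain, from 2254, 2436 and 1813 CPM to 716, 734 and 801 CPM. H2bc4 was the called one of 7 tested histone H2B genes, at 48.1, 47.0 and 33.5 CPM and 81.8, 124 and 81.0 CPM, and its call was lost without budding replicate 3 or spheroid replicate 2 (0.96 and 0.89). The spheroids carry an H2B transgene, and whether its reads were counted on H2bc4 was not tested.

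The median levels of chromosomes 18 and 19 were shifted. For each library, the median over a chromosome's genes of log2 CPM minus the budding mean was taken relative to the median of all genes. Over the 465 tested genes of chromosome 18 it was -0.01, -0.01 and 0.05 in the budding libraries and 0.40, 0.47 and 0.48 in the spheroid libraries, and over the 656 genes of chromosome 19 it was -0.11, 0.01 and 0.10 and -0.40, -0.44 and -0.31. The differences of 0.44 and -0.38 exceeded the spread between replicates (SD at most 0.105), and on these chromosomes 71.8% and 26.4% of genes lay above the median log2 fold change of all genes. On chromosome 18 65 genes were called higher and 35 lower, and on chromosome 19 41 and 99. The X chromosome had a difference of 0.16, and the other 17 chromosomes lay within 0.094 of 0. An exact permutation test over the 6 libraries gave p = 0.1, the smallest that 3 against 3 libraries allow, for chromosomes 18 and 19 and also for 1, 5, 6, 9, 14, 17 and X, so it does not set 18 and 19 apart.

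**Figure D4:**
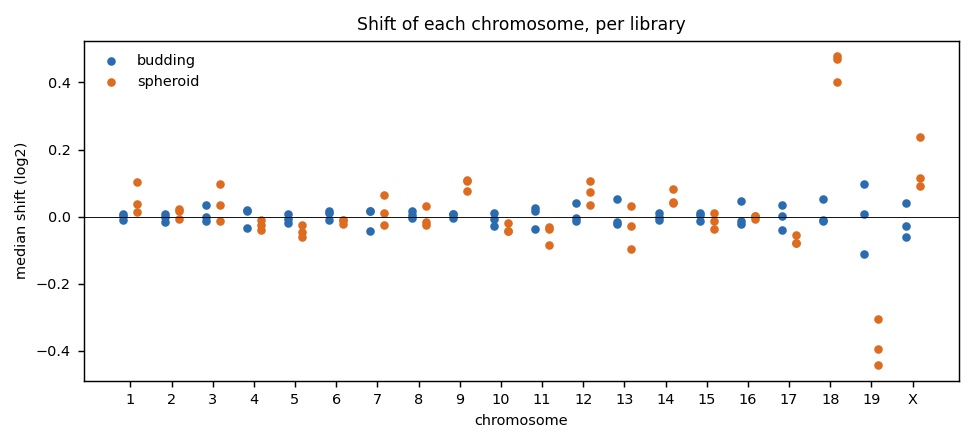
Median log2 CPM of each chromosome's tested genes relative to the mean of the 3 budding libraries and to the median of all genes, for each budding (blue) and spheroid (orange) library, 3 points each per chromosome. The spheroid libraries lie at 0.40 to 0.48 on chromosome 18 and at -0.44 to -0.31 on chromosome 19, and near 0 on most others.

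In the same measure, Halo-NLS libraries were at -0.06, -0.29 and -0.36 for chromosome 18 and 0.27, 0.33 and 0.39 for chromosome 19, and SOX9-Halo budding libraries at 0.07, -0.06 and 0.08 and -0.35, -0.24 and -0.33. SOX9-Halo spheroids were at 0.06, -0.04 and -0.04 for chromosome 18 and 0.23, 0.26 and 0.21 for chromosome 19, so chromosome 19 moved up from budding to spheroid in that line and down in the SOX9-mEGFP line. Chromosome 8 was at 0.47, 0.47 and 0.48 in SOX9-Halo spheroids, against -0.01, 0.09 and -0.01 in SOX9-Halo budding and -0.01, -0.03 and 0.03 in SOX9-mEGFP spheroid libraries. Chromosome 15 was -0.47, -0.29 and -0.27 in Halo-NLS, -0.53, -0.32 and -0.51 in SOX9-Halo budding and -0.38, -0.35 and -0.33 in SOX9-Halo spheroid libraries, against 0.01, 0.01 and -0.01 in SOX9-mEGFP budding and 0.01, -0.01 and -0.04 in SOX9-mEGFP spheroid libraries. Among the genes described above, those on chromosome 18 include Dsg3, Cdx1, Apcdd1, Aqp4, Hbegf, Egr1 and Spry4. Those on chromosome 19 include Anxa1, Myof, Acsl5, Fth1 and Cyp2c55. The changes of the genes named here were larger than these shifts, except that of Acsl5, which was not called. The cause of these shifts was not tested.

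The SOX9-Halo line has budding and spheroid libraries of its own, and the difference between the lines was tested as an interaction, which called 1297 genes (7.39% of those tested), 979 with a higher value in the SOX9-mEGFP line. Of the 1501 genes that rose in the SOX9-mEGFP line 59 were called as having risen less than in the SOX9-Halo line, and 179 as more positive than in it. Of the 1384 that fell, 299 were called as more positive and 54 as more negative. The difference was unevenly spread over the lists. In goblet cell products, the median log2 fold change was -0.85 in the SOX9-mEGFP and -6.32 in the SOX9-Halo line, and the interaction called 12 of 20 members, all more positive in SOX9-mEGFP. It called 10 of 20 brush-border enzymes, 13 of 27 microvillus genes, 19 of 47 cytochrome P450 genes and 13 of 30 intestinal identity factors in that direction, against 2 of the last in the other. For enteroendocrine products, with medians of -7.33 and -9.40, it called 2 of 25, and for fetal-like markers, with medians of 3.64 and 3.72, 4 and 3 of 33. The enteroendocrine median of SOX9-mEGFP was -5.08 with genes at the floor set to their bound, and that of SOX9-Halo was not bounded. With levels this close to the floor, few calls do not show that the lines agree in these products.

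**Figure D5:**
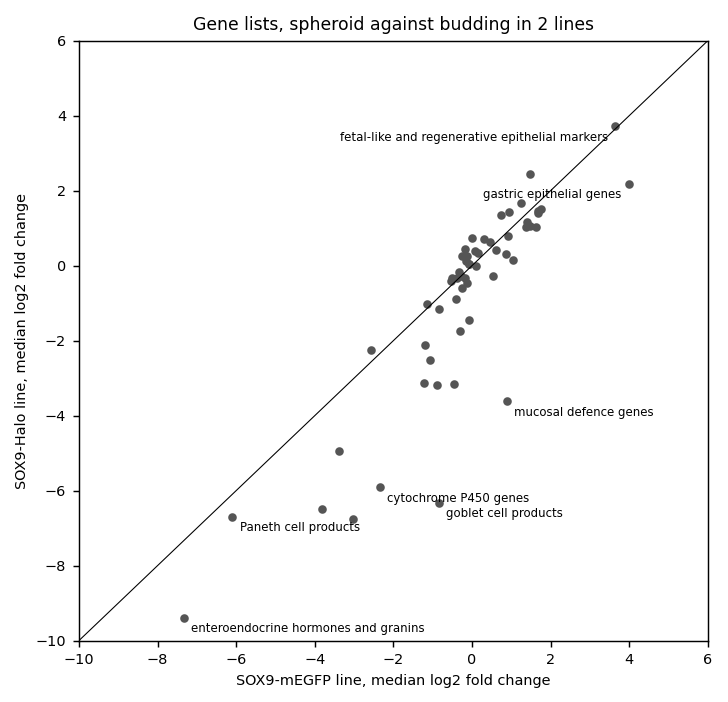
Median log2 fold change from budding to spheroid of each gene list with at least 10 tested members in the SOX9-mEGFP line (horizontal axis) and the SOX9-Halo line (vertical axis), with the line of equal change. Goblet cell products, at -0.85 and -6.32, lie farthest below that line, while fetal-like markers, at 3.64 and 3.72, lie close to it.

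Tff3 shows the difference in single libraries: it was at 754, 1035 and 234 CPM in SOX9-Halo budding and 1.13, 0.564 and 0.671 CPM in SOX9-Halo spheroid libraries, against the 678, 592 and 659.7 CPM kept in SOX9-mEGFP spheroids, and the changes differed by 8.98 on the log2 scale (adjusted p = 7.9e-07). Cdx2 was at 272, 374 and 242 CPM and 2.89, 2.96 and 2.23 CPM in the SOX9-Halo line, a difference between the lines of 4.84 (adjusted p = 5.3e-07). Mmp7, which rose in the SOX9-mEGFP line, was at 5.45, 7.07 and 3.90 CPM in SOX9-Halo budding and 0.494, 0.423 and 0.376 CPM in SOX9-Halo spheroid libraries. The difference between the lines was 8.93 (adjusted p = 7.8e-09), of the same sign as for Tff3 and Cdx2. For Clu, with 1898, 2071 and 2518 CPM in SOX9-Halo spheroid libraries, a difference between the lines was not detected (1.50, adjusted p = 0.16). The lines differed in the tag on SOX9, in passage and, in spheroids, in the second transgene and its selection marker (H2B-mEGFP with Zeo in SOX9-Halo), and these cannot be told apart.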

How the data were processed

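The series holds 15 poly(A)-selected RNA-seq libraries of mouse intestinal organoids, and 6 of them belong to the SOX9-mEGFP line. Per the labels and the study's methods, the authors trimmed reads with cutadapt 4.5, aligned them to GRCm39 with STAR, and deposited HTSeq 2.0.2 counts of uniquely aligned reads per gene, without strand. Antisense and overlapping genes therefore cannot be told apart where they share reads, and 9.65% to 11.1% of reads were ambiguous and 2.36% to 6.10% fell on no feature. These rows were left out.

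Groups were taken from the labels. Counts were fitted in edgeR 4.0.16 (R 4.3.3) with TMM scaling and filterByExpr, with 1 coefficient per condition over all 15 libraries, and tested by quasi-likelihood with Benjamini-Hochberg adjustment. The code was tested on simulated counts. The difference between the SOX9-mEGFP and SOX9-Halo lines was tested as an interaction in the same fit. Gene lists and their members, the named genes and the line itself were chosen with earlier results of these data known. Named were genes the study discusses, the 12 largest rises and 12 largest falls with a mean of 100 or more counts and no overlap, and up to 3 most read and 3 most changed called genes per list, some of which are not reported here. Alternatives were other scalings and filters, DESeq2 1.42.0, the 6 libraries alone, the replicate block, other thresholds, and leaving out each library. Promoter sequences are from RefSeq (GRCm38.p6), and positions of genes are in GRCm39.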

Additional observations from a re-analysis of the deposited data

Results flagged for a closer look

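The 2 lines, SOX9-mEGFP and SOX9-Halo, differed in how levels moved from budding organoids to spheroids, by the interaction test in edgeR, in 3 of the 4 genes for which this difference was described. The change in the SOX9-mEGFP line minus that in the SOX9-Halo line was 8.98 on the log2 scale for Tff3 (adjusted p = 7.9e-07), 4.84 for Cdx2 (adjusted p = 5.3e-07) and 8.93 for Mmp7 (adjusted p = 7.8e-09). Tff3 and Cdx2 were lower in all 3 SOX9-Halo spheroid libraries than in any SOX9-mEGFP spheroid library, and Mmp7 was higher in all 3 SOX9-mEGFP spheroid libraries than in any other library shown. The genes were picked for description with these values known.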

How the results depend on the processing

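With other scalings, filters, DESeq2 or the 6 libraries alone, between 1464 and 1731 genes were called higher and between 1327 and 1608 lower, and no called gene was called in the opposite direction. A threshold of 2 on the log2 fold change left 979 higher. Leaving out 1 library gave 1134 to 1362 higher and 1006 to 1470 lower. For the difference between the lines the counts were 979 higher and 318 lower. They became 208 lower at a log2 threshold of 2, 1474 higher and 584 lower at an adjusted p of 0.05, and 488 lower in DESeq2, and without 1 library 799 to 909 higher and 180 to 274 lower. Sox9 stayed uncalled, at 0.38 to 1.05 without 1 library. The shift of chromosome 18 was 0.50 among genes with a mean count of 100 or more, 0.36 among uncalled genes and 0.41 to 0.51 without 1 library, and that of chromosome 19 -0.44 to -0.30. Distances between the morphologies were 2.61 times those within them over all genes and 6.11 times over the 500 most variable genes.

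With the replicate block, 1627 genes were called higher and 1475 lower, and Sox9 was at 0.67. Within the 6 libraries alone the block ended the calls of Olfm4 (-3.61, adjusted p = 0.064) and Ezr (1.03, adjusted p = 0.013). Deviations of same-numbered libraries correlated at r = 0.049, 0.045 and 0.223 across 15588 genes, and those of differently numbered libraries at -0.286 to 0.282. With 3 libraries per group these values cannot decide whether same-numbered libraries belong together. The main fit treated them as unpaired.

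Of the called genes in the text, Olfm4 lost its call with the 6 libraries alone (adjusted p = 0.017) and without budding replicate 3 (-2.42, adjusted p = 0.068) or any spheroid replicate. Ezr lost it with DESeq2's size factors, with the 6 libraries alone, and without budding replicates 2 or 3 or spheroid replicates 2 or 3 (0.81 to 0.97). Egr1 lost it without any budding replicate or spheroid replicate 3 (2.09 to 2.91), Pigr without budding replicates 1 or 2 or spheroid replicates 2 or 3 (-1.76 to -1.51), H2bc4 without budding replicate 3 or spheroid replicate 2 (0.96 and 0.89) and Sis without spheroid replicate 3 (-3.75, adjusted p = 0.012). Calls were gained without 1 library in Lgr5 (1.65), Hnf4a (-1.12 and -1.10), Gata4 (-1.14 and -1.22), Krt19 (1.05), Sox4 (-1.65) and Junb (1.76), in Sox4 with DESeq2 (-1.31), in Junb with library sizes alone (1.31) and the block (1.38), in Spink4 with the block in the 6 libraries (-1.01), and with no low-count filter in Muc2, Fcgbp, Krt20, Spink4, Sox4 and Junb and in the difference between the lines for Clu (1.48).

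Among uncalled genes, the sign turned with library sizes alone in Acsl5 (0.02), Actb (0.01) and Elf3 (0.01), and with the replicate block in Axin2 (0.14, and 0.17 in the 6 libraries) and Zg16 (0.77 and 0.06). Values without 1 library spanned 0 in Acsl5 (-0.29 to 0.11), Actb (-0.24 to 0.14), Axin2 (-0.50 to 0.86), Cdkn1a (-0.13 to 0.63), Clca1 (-0.19 to 1.69), Elf3 (-0.21 to 0.11), Epcam (-0.16 to 0.05), Gapdh (-0.05 to 0.60), Mki67 (-1.15 to 0.85), Nf2 (-0.19 to 0.01) and Zg16 (-1.36 to 0.63), and budding replicate 3 turned Axin2, Cdkn1a, Clca1, Gapdh and Mki67. The cause was not tested. The comparison of motif shares over 300 bases was not run, since promoters matched too few genes.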
